A study of Mus musculus with 16 samples.

Results

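The genes described here are 43 genes of the cell cycle and of DNA replication, out of the 55414 Ensembl gene identifiers counted in each library of this series. They were taken by gene symbol from a list, by a rule that uses no expression value. The list itself was chosen with earlier results of these data known, so counts over it are descriptions and no set test was run. The list holds 13 genes of DNA synthesis, called the S phase genes below, 20 genes of the G2 phase and of mitosis, called the mitosis genes, 3 genes of the switch from G1 into S phase (E2f1, Ccne1 and Ccne2), the 3 D-type cyclins and 4 inhibitors of cyclin-dependent kinases (CDKs). All 43 passed the filter on low counts in every comparison, and their levels ran from 7.87 to 882 CPM (counts scaled to library size) over the 16 libraries.

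A cell enters the cycle when D-type cyclins with their CDKs, and then E-type cyclins with CDK2, phosphorylate the retinoblastoma protein and release E2F transcription factors, which activate the genes of DNA synthesis. The genes that build the spindle and carry out mitosis are expressed later in the cycle, largely under the DREAM and B-MYB complexes and FOXM1, while CDK inhibitors of the CIP/KIP and INK4 families hold cells in G1. In the growth plate, chondrocytes divide in columns and then leave the cycle to become hypertrophic, and Cdkn1c (p57) is known for its part in this exit.

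The study asked how a gain of function of NOTCH2 alters the response of chondrocytes to tumor necrosis factor α (TNFα). Chondrocyte-enriched cells came from the epiphyses of C57BL/6 pups aged 3 to 4 days, males and females pooled, that were heterozygous for Notch2tm1.1Ecan or were control (wild type) littermates. The Notch2tm1.1Ecan allele is a mouse model of Hajdu Cheney Syndrome. It carries a stop codon before the PEST domain of NOTCH2, so that a truncated and stable protein is made in every cell that uses the gene, and the allele is not restricted to chondrocytes. Cells were grown to confluence in monolayer and given, for 6 h, either vehicle (PBS) or 50 ng/ml of TNFα, which makes 4 groups of 4 libraries, the latter labelled as biological replicates: control vehicle, Notch2tm1.1Ecan vehicle, control TNFα and Notch2tm1.1Ecan TNFα. Which animals went into each replicate is not given in the sources used here, so the p-values measure the spread between these cultures. The sample labels give the removal of serum for the TNFα groups only, whereas the methods of the study give it for vehicle and TNFα alike. If the labels are right, every comparison of TNFα with vehicle includes the removal of serum, a change that itself bears on the cell cycle, and the effects cannot be told apart. The comparisons of genotypes under 1 treatment are not touched by this.

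Each library held from 3439726 to 44237300 counts on genes, with Notch2tm1.1Ecan TNFα replicate 4 the shallowest. Of 4 Notch target genes, Heyl was at 0.152 to 0.298 CPM in control and at 1.44 to 2.28 CPM in Notch2tm1.1Ecan cells with vehicle, and Hes1 and Hey1 were higher in the mutant by 0.61 and 0.59 on the log2 scale (adjusted p = 0.000405 and 0.00727 with edgeR). Hey2 was not called with vehicle (adjusted p = 0.111), and with TNFα Heyl was called (log2 fold change 2.46) and Hes1, Hey1 and Hey2 were not (adjusted p = 0.211, 0.861 and 0.944). The reads were counted per gene, and the mutated base itself cannot be seen in gene counts. Defining chondrocyte markers were present in every library (Col2a1 at 13473 CPM or more), and all 17 markers on the chondrocyte list were lower in Notch2tm1.1Ecan than in control cells under either treatment. Their sum was 52061 to 55861 CPM in control vehicle, 32481 to 37704 in Notch2tm1.1Ecan vehicle, 37751 to 44758 in control TNFα and 20484 to 23358 in Notch2tm1.1Ecan TNFα. The sum of 8 hypertrophic chondrocyte markers was lower in the mutant as well, at 999 to 1100 against 1355 to 1557 CPM with vehicle and 1711 to 1960 against 2081 to 2570 CPM with TNFα, with members called in both directions. The summed markers of several other cell types were higher in the mutant. The sum of 15 macrophage markers was 77.1 to 83.4 CPM in control and 145 to 169 CPM in Notch2tm1.1Ecan cells with vehicle, with 11 of 15 called higher, and 91.5 to 106 against 189.9 to 215 CPM with TNFα, with 13 of 15 called. Of all genes tested, 6.19% were called higher and 4.35% lower in the mutant with vehicle, and 5.63% and 4.31% with TNFα. Aif1 and Itgam were at 0 in some libraries. The sum of 10 endothelial markers was 10.5 to 12.7 against 20.7 to 25.8 CPM with vehicle, that of 13 skeletal muscle markers 27.6 to 34.0 against 46.7 to 55.3 CPM, and that of 10 fibroblast and perichondrium markers 31734 to 34691 against 36196 to 38843 CPM, with 6 called higher and 2 lower. The 8 red blood cell markers summed to 0.275 CPM or less in vehicle libraries of either genotype. All these lists but the last moved with genotype, as members did, and their part in the results below was not tested. In bulk RNA, a smaller share of dividing cells and less RNA of these genes per cell cannot be told apart.

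Both replicate 4 libraries of control cells stood apart. In control vehicle replicate 4 the summed level of 20 TNFα target genes was 1967 CPM, against 313 to 319.9 CPM in the other control vehicle libraries and 10949 to 12038 CPM in control TNFα replicates 1 to 3, and in control TNFα replicate 4 it was 9735 CPM. On the first principal component of all genes, which held 74.5% of the variance, control vehicle replicate 4 lay at -17.4 (other vehicle libraries -49.2 to -46.7) and control TNFα replicate 4 at 33.3 (other TNFα libraries 44.0 to 47.8). The main counts of the 43 genes are therefore also given without these libraries. Notch2tm1.1Ecan TNFα replicate 4, the shallowest library, stood apart on the second component, which held 7.62% of the variance. It lay there at -31.6, and the other Notch2tm1.1Ecan TNFα libraries at -11.0 to -9.84.

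Some short motifs differed between the start regions of the S phase and mitosis genes, and 1 was common in both. RefSeq promoter windows on GRCm38.p6, which run from 250 bases before to 50 bases after a gene's start, were at hand for 32 of the 43 genes, in 35 windows. They were searched on both strands for 4 forms of the E2F site (TTTCCCGC, TTTCGCGC, TTTGCCGC and TTTGGCGC, which can overlap each other on opposite strands), for the CCAAT box bound by NF-Y (CCAAT) and for the cell cycle genes homology region, CHR, an element bound by the DREAM and B-MYB complexes (TTTGAA). An E2F form stood in 6 of 12 windows of the S phase genes, 1 of 15 of the mitosis genes and 2.26% of all 32851 windows. A CHR stood in 11 of 15 windows of the mitosis genes, 1 of 12 of the S phase genes and 17.9% of all windows. A CCAAT box stood in 14 of 15 mitosis windows and 9 of 12 S phase windows, and in 37.4% of all windows. The windows of the 2 CDK inhibitors that rose with TNFα, Cdkn1a and Cdkn2b, held no E2F form and no CCAAT box, and that of Cdkn2b held 1 CHR. A match is a description of the letters and not a binding site.

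4 windows are shown because they stand for the 2 groups: Mcm5 and Rrm2, which encode a helicase subunit and the small subunit of ribonucleotide reductase, for S phase, and Cdc20 and Plk1, which encode the activator of the anaphase-promoting complex and polo-like kinase 1, for mitosis. Capitals mark matches to any of the 3 motifs. The windows lie at chr8:75109259-75109558 (plus strand), chr12:24708004-24708303 (plus strand), chr4:118437294-118437593 (minus strand) and chr7:122159185-122159484 (plus strand) of GRCm38.p6, and each is written 5′ to 3′ on the strand of its gene. In the Mcm5 window 2 E2F forms overlap on opposite strands, and Rrm2 shows a CCAAT box with none of the E2F forms searched.
Mcm5: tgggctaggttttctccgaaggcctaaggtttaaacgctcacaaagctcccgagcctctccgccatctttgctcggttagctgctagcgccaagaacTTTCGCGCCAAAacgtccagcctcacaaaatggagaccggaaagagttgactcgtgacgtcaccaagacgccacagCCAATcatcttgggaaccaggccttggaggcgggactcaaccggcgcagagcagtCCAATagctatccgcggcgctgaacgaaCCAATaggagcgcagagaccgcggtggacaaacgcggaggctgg
Rrm2: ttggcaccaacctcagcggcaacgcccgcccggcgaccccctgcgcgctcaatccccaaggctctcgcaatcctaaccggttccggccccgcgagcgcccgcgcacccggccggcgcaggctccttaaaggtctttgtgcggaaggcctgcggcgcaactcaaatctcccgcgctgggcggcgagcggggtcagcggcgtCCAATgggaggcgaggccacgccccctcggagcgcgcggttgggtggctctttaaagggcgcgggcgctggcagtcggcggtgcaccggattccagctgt
Cdc20: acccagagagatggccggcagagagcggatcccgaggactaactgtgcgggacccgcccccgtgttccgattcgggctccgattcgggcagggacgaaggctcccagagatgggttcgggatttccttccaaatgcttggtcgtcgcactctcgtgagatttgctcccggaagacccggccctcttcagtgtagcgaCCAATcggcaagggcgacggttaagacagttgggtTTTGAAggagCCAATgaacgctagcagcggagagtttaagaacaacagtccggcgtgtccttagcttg
Plk1: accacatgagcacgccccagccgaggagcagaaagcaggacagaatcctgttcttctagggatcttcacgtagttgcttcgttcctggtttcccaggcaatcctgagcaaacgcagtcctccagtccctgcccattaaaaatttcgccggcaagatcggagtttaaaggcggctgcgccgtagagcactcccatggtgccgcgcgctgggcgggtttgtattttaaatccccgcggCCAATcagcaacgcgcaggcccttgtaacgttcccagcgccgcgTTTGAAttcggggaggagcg

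Of the 43 genes, 25 were higher and 2 lower in Notch2tm1.1Ecan than in control cells with vehicle, at an adjusted p under 0.05 with edgeR. Over all 19432 genes tested, 6.19% were called higher and 4.35% lower. The calls fell on 14 of 20 mitosis genes and 11 of 13 S phase genes, each higher, and on Ccnd1 and Cdkn1c, each lower. The changes were small: the median log2 fold change was 0.28 for the mitosis genes and 0.24 for the S phase genes, against -0.002 for all genes, and the positive calls ran up to 0.38. In 24 of the 27 genes called the 2 groups of 4 libraries did not overlap. The genes were called on these same libraries, so this count adds no support to the calls, and it was not taken over all genes. Without control vehicle replicate 4, 18 were higher and 2 lower, with 12 mitosis genes and 6 S phase genes among them. Shares of all genes are not given for this or the other fits with libraries left out. A change in these counts thus cannot be told apart from a change in power. The S phase count was also 6 or 7 without each of the other libraries but Notch2tm1.1Ecan vehicle replicate 1, without which it was 11, so leaving out control vehicle replicate 4 lowered it no more than leaving out another library did.

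With TNFα, 11 of the 43 genes were higher and 4 lower in Notch2tm1.1Ecan cells, where 5.63% and 4.31% of all 19227 genes tested were called. Among the mitosis genes 9 of 20 were higher, with a median log2 fold change of 0.22, whereas Rrm1 was the single S phase gene called and the S phase median was 0.04 (all genes -0.01). Cdkn2b was higher, and Ccnd1, Ccnd3, Cdkn1a and Cdkn1c were lower. In 10 of the 15 genes called the groups did not overlap, a count that again was not taken over all genes and adds no support. Without control TNFα replicate 4 the counts were 10 and 4, with 9 mitosis genes: Aurkb, Birc5, Ube2c and Cdkn2b were no longer called, and Kif11, Cenpe and Tpx2 were. The count of mitosis genes fell to 3, 2 or 5 without Notch2tm1.1Ecan TNFα replicate 2, 3 or 4 and to 4 without control TNFα replicate 2.

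**Figure D1:**
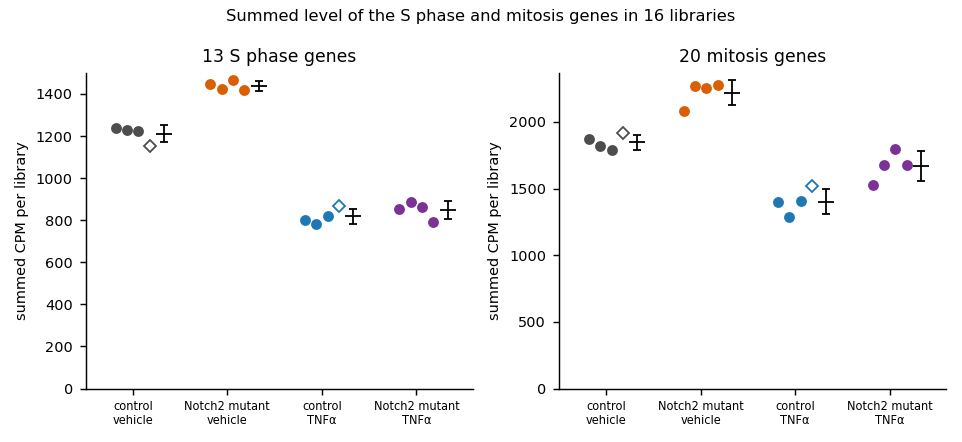
Summed CPM of the 13 S phase genes (left) and the 20 mitosis genes (right) in each library, by group. Circles are libraries, open diamonds the 2 control replicate 4 libraries that stood apart, and the black bar is the mean ± SD of 4. With vehicle the mutant libraries lay above the control libraries in both panels, while with TNFα the S phase sums of the genotypes overlapped (782 to 869.7 CPM in control and 792 to 887 CPM in Notch2tm1.1Ecan cells). That overlap lay with the replicate 4 libraries of both genotypes, and the other TNFα libraries were apart by genotype.

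TNFα went with lower levels of most of these genes in either genotype. In control cells 34 of the 43 were lower and 2 higher, where 20.9% and 23.3% of all 19338 genes tested were called lower and higher. In Notch2tm1.1Ecan cells 36 were lower and 2 higher, where 21.9% and 22.6% of 19633 genes were called. The lower genes included 12 of 13 S phase genes in each genotype, 15 mitosis genes in control cells and 16 in Notch2tm1.1Ecan cells, all 3 G1/S switch genes and all 3 D-type cyclins, and the 2 higher genes were Cdkn1a and Cdkn2b. The median log2 fold change of the S phase genes was -0.49 in control and -0.76 in Notch2tm1.1Ecan cells, that of the mitosis genes -0.43 and -0.48, and that of all genes 0.04 and 0.03. Without both control replicate 4 libraries the counts in control cells were the same and the S phase median was -0.58.

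The summed S phase level was 1238, 1230, 1225 and 1154 CPM in control vehicle replicates 1 to 4 and 1449, 1422, 1464 and 1417 CPM in Notch2tm1.1Ecan vehicle. With TNFα it was 799.8, 782, 819 and 869.7 CPM in control and 854, 887, 863 and 792 CPM in Notch2tm1.1Ecan cells. All TNFα libraries thus lay below all vehicle libraries, and the genotypes were apart with vehicle but not with TNFα. The overlap with TNFα lay with the replicate 4 libraries of both genotypes. Replicates 1 to 3 were apart, at 782 to 819 CPM in control and 854 to 887 CPM in Notch2tm1.1Ecan cells. The summed mitosis level was 1870, 1819, 1787 and 1915 CPM in control vehicle and 2082, 2268, 2257 and 2277 CPM in Notch2tm1.1Ecan vehicle. It was 1402, 1286, 1404 and 1521 CPM in control TNFα and 1524, 1676, 1796 and 1679 CPM in Notch2tm1.1Ecan TNFα, where the lowest mutant library lay just above the highest control library. The comparisons of genotype and of TNFα share libraries and are not independent of each other.

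The difference between the genotypes in the effect of TNFα was tested as an interaction over all 16 libraries, where 0.474% of 21321 genes were called in either direction. Of the 43 genes 1 was called with edgeR, Cdkn2b (log2 fold change 0.43 ± 0.097, adjusted p = 0.0265). Without both control replicate 4 libraries its value was 0.29 with an adjusted p of 0.106. The call was also lost in 8 of the 16 fits that left out 1 library, 5 of them without a Notch2tm1.1Ecan library, and with a replicate block. Without both control replicate 4 libraries Cdkn1a was called in its place with edgeR (log2 fold change -0.30, adjusted p = 0.0416). Over all libraries the edgeR value of Cdkn1a was -0.27 with an adjusted p of 0.131. DESeq2 over all 16 libraries called both Cdkn2b (log2 fold change 0.45 ± 0.11, adjusted p = 0.00564) and Cdkn1a (log2 fold change -0.25 ± 0.065, adjusted p = 0.0104). With edgeR 0 of 13 S phase genes and 0 of 20 mitosis genes were called, and with DESeq2 0 and 0 were called. With edgeR, 5 S phase and 3 mitosis genes had an unadjusted p under 0.05, as did 1856 of all 21321 genes. The median interaction was -0.16 for the S phase genes and -0.08 for the mitosis genes, against -0.01 for all genes. The single largest S phase value was that of Rrm2 (log2 fold change -0.40 ± 0.12, adjusted p = 0.205), so a larger loss of S phase transcripts in the mutant was not shown gene by gene. These medians and the Rrm2 value include both control replicate 4 libraries and are not given without them. The S phase sum of replicate 4 was the lowest of control vehicle (1154 CPM) and the highest of control TNFα (869.7 CPM). Rrm2 was at 117 CPM in control TNFα replicate 4 and at 79.0 to 86.5 CPM in the others of that group.

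**Figure D2:**
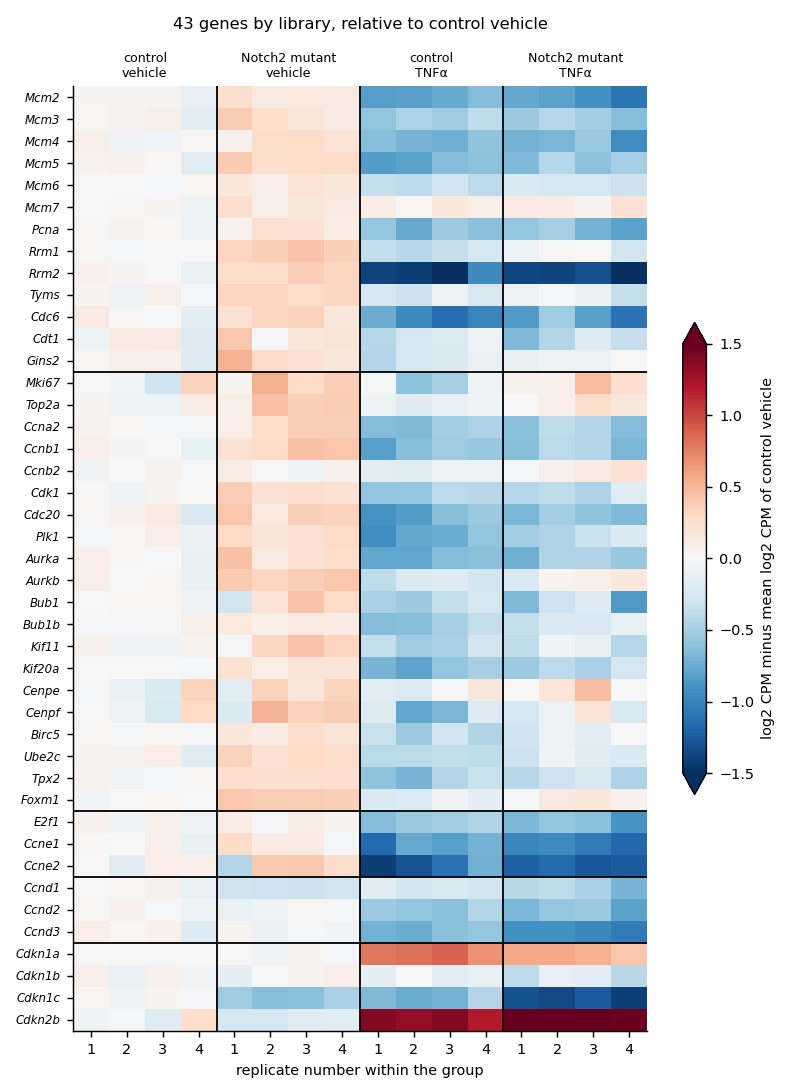
Level of each of the 43 genes in each of the 16 libraries, as log2 CPM minus the mean log2 CPM of control vehicle, with libraries in columns by group and replicate number. From the top, the blocks are S phase, mitosis, G1/S switch, D-type cyclins and CDK inhibitors. Red is above and blue below control vehicle, and the scale ends at 1.5 in either direction, which Rrm2 and Cdkn2b pass in some TNFα libraries. In Notch2tm1.1Ecan vehicle the means of the S phase and mitosis genes lie above control vehicle. With TNFα most lie below it, apart from Mcm7 in control cells and from Mki67, Top2a, Cenpe, Ccnb2, Foxm1, Aurkb and Mcm7 in Notch2tm1.1Ecan cells.

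In the lists of values that follow, 4 values are the CPM of replicates 1 to 4 of a group in that order, a value after ± is the SE of a log2 fold change, and adjusted p-values are those of edgeR over all genes tested. Fold changes compare Notch2tm1.1Ecan with control, or TNFα with vehicle.

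The D-type cyclins, the regulatory subunits of CDK4 and CDK6 that couple growth signals to the cycle, were among the most abundant members. With vehicle, Ccnd1 (ENSMUSG00000070348, cyclin D1) was at 335, 338, 349.9 and 312 CPM in control and 271, 269.7, 266 and 277 CPM in Notch2tm1.1Ecan cells. With TNFα, Ccnd1 was at 294, 275, 283 and 274 and 249, 256, 239 and 205 CPM. All mutant libraries lay below all control libraries under each treatment. Ccnd1 was lower in the mutant with vehicle (log2 fold change -0.29 ± 0.048, adjusted p = 0.000142) and with TNFα (log2 fold change -0.23 ± 0.063, adjusted p = 0.0164), and with vehicle this was against the direction of the S phase and mitosis genes. It was lower with TNFα in control cells (log2 fold change -0.24 ± 0.047, adjusted p = 0.000254) and in mutant cells (log2 fold change -0.18 ± 0.064, adjusted p = 0.0211). Exons of Lto1 on the opposite strand cover 48.4% of its exon bases.

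With vehicle, Ccnd2 (cyclin D2) was at 850.4, 882, 839 and 799 CPM in control and 785, 814, 862 and 826 CPM in mutant cells, the highest CPM of the members. With TNFα, Ccnd2 was at 579, 558, 547 and 621 and 524, 565, 571 and 481 CPM. The genotypes overlapped under each treatment, and the treatments did not overlap. The log2 fold change with TNFα was -0.54 ± 0.045 in control and -0.61 ± 0.061 in mutant cells (adjusted p = 2.16e-09 and 3.03e-09). With vehicle, Ccnd3 (cyclin D3) was at 178, 168, 173 and 145 CPM in control and 171, 154, 163 and 161 CPM in mutant cells. With TNFα, Ccnd3 was at 101, 98.4, 107 and 110.3 and 88.1, 88.4, 84.6 and 79.7 CPM. Here the genotypes overlapped with vehicle and were apart with TNFα, where the mutant was lower (log2 fold change -0.27 ± 0.061, adjusted p = 0.00258). TNFα went with a lower level in control cells (log2 fold change -0.66 ± 0.058, adjusted p = 5.37e-09) and in mutant cells (log2 fold change -0.92 ± 0.062, adjusted p = 1.09e-12), and the interaction was not called (adjusted p = 0.28).

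The G1/S switch genes fell with TNFα, Ccne1 and Ccne2 by more than any D-type cyclin, and 0 of 3 were called between genotypes with edgeR or DESeq2 (0 at an unadjusted p under 0.05). With vehicle, E2f1, an activating E2F, was at 54.6, 50.3, 55.0 and 48.9 CPM in control and 56.3, 51.6, 56.3 and 53.5 CPM in mutant cells. With TNFα, E2f1 was at 33.3, 35.3, 36.4 and 38.1 and 32.6, 34.4, 33.7 and 28.1 CPM. The genotypes overlapped and the treatments were apart. Its log2 fold change with TNFα was -0.54 ± 0.061 in control and -0.73 ± 0.073 in mutant cells (adjusted p = 2.3e-07 and 3.39e-09).

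With vehicle, Ccne1 (cyclin E1, which activates CDK2) was at 39.6, 39.1, 40.8 and 35.8 CPM in control and 46.8, 42.4, 42.1 and 38.4 CPM in mutant cells. With TNFα, Ccne1 was at 17.3, 22.9, 22.0 and 23.7 and 19.7, 20.1, 18.7 and 17.1 CPM. All TNFα libraries lay below all vehicle libraries, with a log2 fold change of -0.84 ± 0.082 in control and -1.14 ± 0.083 in mutant cells (adjusted p = 2.31e-08 and 5.58e-12). With vehicle, Ccne2 (cyclin E2) was at 21.6, 19.0, 23.2 and 22.8 CPM in control and 15.8, 28.3, 28.5 and 25.9 CPM in mutant cells. With TNFα, Ccne2 was at 8.12, 8.78, 9.97 and 13.1 and 9.20, 9.65, 8.95 and 9.10 CPM. Notch2tm1.1Ecan vehicle replicate 1 was the lowest vehicle library, yet it lay above each TNFα library. The log2 fold change with TNFα was -1.10 ± 0.12 in control and -1.42 ± 0.17 in mutant cells (adjusted p = 8.45e-07 and 1.24e-05). Between the genotypes, Ccne2 differed by 0.20 ± 0.18 with vehicle and -0.12 ± 0.14 with TNFα (adjusted p = 0.601 and 0.696).

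The 4 CDK inhibitors moved in different directions. With vehicle, Cdkn1c (ENSMUSG00000037664, p57) was at 204, 192, 205 and 195 CPM in control and 137, 127, 128 and 142 CPM in mutant cells. With TNFα, Cdkn1c was at 126, 119, 121 and 146 and 80.4, 78.1, 83.6 and 75.0 CPM. Control vehicle was highest and Notch2tm1.1Ecan TNFα lowest, and the genotypes were apart under each treatment. Cdkn1c had the largest difference between genotypes of the 43 genes, with vehicle (log2 fold change -0.56 ± 0.052, adjusted p = 4.58e-08) and with TNFα (log2 fold change -0.67 ± 0.068, adjusted p = 3.64e-08). It was lower with TNFα in control cells (log2 fold change -0.63 ± 0.059, adjusted p = 1.26e-08) and in mutant cells (log2 fold change -0.75 ± 0.064, adjusted p = 1.34e-10), and the interaction was -0.11 ± 0.089 (adjusted p = 0.771). Exons of Gm44732 on the opposite strand, which was at 4.01 CPM or less in every library, cover 29.0% of the exon bases of Cdkn1c.

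With vehicle, Cdkn1a (p21, a p53 target that blocks CDK2) was at 283, 283, 283 and 282 CPM in control and 285, 273, 290.0 and 279 CPM in mutant cells. With TNFα, Cdkn1a was at 488, 502, 522 and 456 and 418, 418, 411 and 378 CPM. The genotypes overlapped with vehicle, both were higher with TNFα, and all mutant TNFα libraries lay below all control TNFα libraries. The rise with TNFα was 0.81 ± 0.047 on the log2 scale in control and 0.53 ± 0.057 in mutant cells (adjusted p = 3.64e-11 and 1.29e-08), and with TNFα the mutant was lower (log2 fold change -0.26 ± 0.06, adjusted p = 0.00378).

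With vehicle, Cdkn2b (ENSMUSG00000073802, p15, an inhibitor of CDK4 and CDK6) was at 54.1, 55.8, 49.6 and 67.7 CPM in control and 47.5, 47.5, 49.6 and 50.0 CPM in mutant cells. With TNFα, Cdkn2b was at 147, 140.3, 147 and 129 and 167, 166, 159 and 157 CPM. Control vehicle replicate 4 was the highest of the vehicle libraries and control TNFα replicate 4 the lowest of the TNFα libraries. The rise with TNFα was 1.31 ± 0.093 on the log2 scale in control and 1.74 ± 0.061 in mutant cells (adjusted p = 5.35e-07 and 7.31e-19). Without both control replicate 4 libraries the rise in control cells was 1.45. With TNFα the mutant was higher (log2 fold change 0.22 ± 0.061, adjusted p = 0.0156), and without control TNFα replicate 4 that difference was 0.17 with an adjusted p of 0.0651. With vehicle, Cdkn1b (p27) was at 50.9, 44.8, 50.4 and 47.1 CPM in control and 43.5, 48.4, 50.0 and 51.5 CPM in mutant cells. With TNFα, Cdkn1b was at 43.8, 48.1, 42.9 and 44.5 and 36.9, 44.3, 43.4 and 36.1 CPM. Its groups overlapped throughout, and 1 comparison was called, TNFα in mutant cells (log2 fold change -0.25 ± 0.079, adjusted p = 0.0102).

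**Figure D3:**
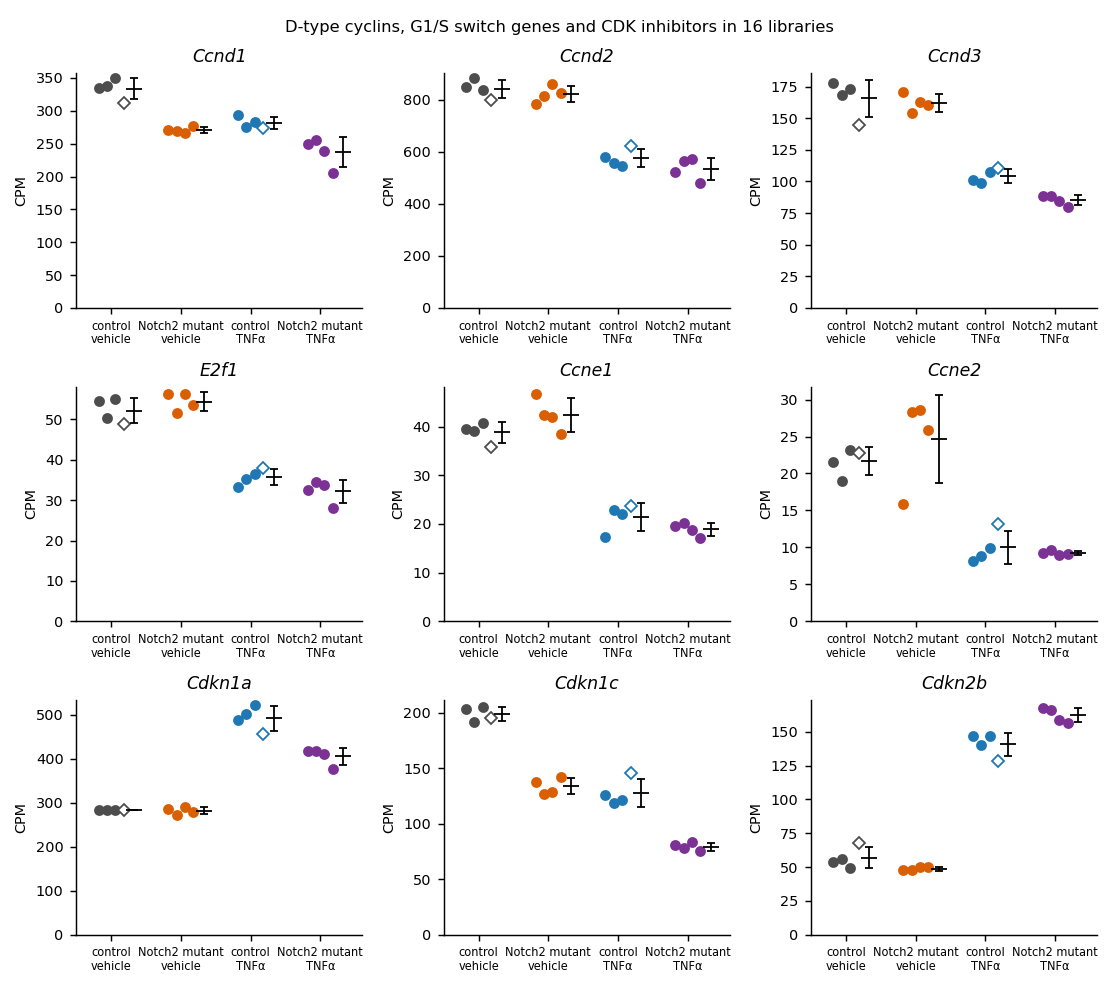
CPM of the D-type cyclins (top), G1/S switch genes (middle) and 3 of the 4 CDK inhibitors (bottom) in each library. Circles are libraries, open diamonds the 2 control replicate 4 libraries, and the black bar is the mean ± SD of 4 libraries. Cdkn1a and Cdkn2b were higher with TNFα and the other genes lower, and Cdkn1c and Ccnd1 were lower in the mutant under each treatment.

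Among the S phase genes, the subunits of ribonucleotide reductase, which makes deoxyribonucleotides, stood out in both directions. With vehicle, Rrm2 (ENSMUSG00000020649, the small subunit) was at 236, 233, 225 and 212 CPM in control and 275, 274, 292 and 283 CPM in mutant cells. With TNFα, Rrm2 was at 86.5, 84.8, 79.0 and 117 and 87.8, 87.4, 90.6 and 76.4 CPM. All mutant vehicle libraries lay above all control vehicle libraries, and all TNFα libraries lay far below both. Rrm2 was higher in the mutant with vehicle (log2 fold change 0.32 ± 0.049, adjusted p = 7.34e-05), and it fell with TNFα by the most of the S phase and mitosis genes, in control cells (log2 fold change -1.30 ± 0.12, adjusted p = 5.85e-05) and in mutant cells (log2 fold change -1.70 ± 0.063, adjusted p = 2.28e-18). With TNFα the genotypes overlapped (log2 fold change -0.08 ± 0.11, adjusted p = 0.747).

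With vehicle, Rrm1 (the large subunit) was at 174, 169.6, 171 and 172 CPM in control and 216, 222, 231 and 219.6 CPM in mutant cells. With TNFα, Rrm1 was at 133, 128, 135 and 144 and 163, 174, 172 and 142 CPM. The genotypes were apart with vehicle, and with TNFα the replicate 4 libraries overlapped. Rrm1 was higher in the mutant with vehicle (log2 fold change 0.38 ± 0.047, adjusted p = 4.08e-06) and with TNFα (log2 fold change 0.29 ± 0.063, adjusted p = 0.00203). Its loss with TNFα was smaller than that of Rrm2, at -0.34 ± 0.049 in control and -0.44 ± 0.064 in mutant cells (adjusted p = 5.2e-06 and 2.2e-06). With vehicle, Tyms (thymidylate synthase) was at 34.0, 31.5, 35.0 and 32.4 CPM in control and 41.4, 41.5, 40.3 and 41.3 CPM in mutant cells. With TNFα, Tyms was at 28.0, 26.7, 31.6 and 28.1 and 31.5, 32.5, 31.0 and 25.9 CPM. The vehicle groups did not overlap (log2 fold change 0.31 ± 0.062, adjusted p = 0.00126), while with TNFα the genotypes did. TNFα went with lower Tyms in control cells (log2 fold change -0.21 ± 0.069, adjusted p = 0.0147) and in mutant cells (log2 fold change -0.41 ± 0.074, adjusted p = 4.19e-05).

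The MCM genes encode the subunits of the replicative helicase. With vehicle, Mcm2 was at 112, 112, 112 and 99.9 CPM in control and 131, 119, 120.3 and 119.8 CPM in mutant cells. With TNFα, Mcm2 was at 61.5, 62.1, 64.5 and 69.5 and 63.8, 62.3, 57.8 and 51.0 CPM. Control vehicle replicate 4 lay below its group, and the genotype difference with vehicle was called with it (log2 fold change 0.18 ± 0.055, adjusted p = 0.0418) and not without it, when the groups were still apart and the value was 0.13 with an adjusted p of 0.136. The loss with TNFα was -0.75 ± 0.054 in control and -1.04 ± 0.069 in mutant cells (adjusted p = 3.89e-10 and 8.71e-13). With vehicle, Mcm5 was at 88.6, 89.5, 87.5 and 76.9 CPM in control and 112, 101, 103 and 104.7 CPM in mutant cells. With TNFα, Mcm5 was at 47.9, 48.9, 54.3 and 55.6 and 54.0, 63.6, 55.9 and 60.7 CPM. Mcm5 was higher in the mutant with vehicle (log2 fold change 0.31 ± 0.059, adjusted p = 0.000804), with no overlap and in each fit that left out 1 library. It was lower with TNFα, with a log2 fold change of -0.72 ± 0.06 in control and -0.85 ± 0.068 in mutant cells (adjusted p = 2.61e-09 and 4.23e-11).

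With vehicle, Mcm4 was at 97.9, 90, 90.3 and 94.4 CPM in control and 97.3, 113, 113 and 108 CPM in mutant cells. With TNFα, Mcm4 was at 59.8, 57.4, 55.8 and 61.4 and 57.1, 57.9, 63.5 and 48.8 CPM. Notch2tm1.1Ecan vehicle replicate 1 lay within the control range, and the difference was still called (log2 fold change 0.21 ± 0.056, adjusted p = 0.0134). Its log2 fold change with TNFα was -0.66 ± 0.054 in control and -0.90 ± 0.073 in mutant cells (adjusted p = 1.76e-09 and 5.67e-11). Mcm3 and Mcm6 were also called higher in the mutant with vehicle (log2 fold changes 0.24 and 0.16) and lower with TNFα in either genotype. Mcm7, chosen for description after its values were seen, was the single S phase gene not called with TNFα. With vehicle, Mcm7 was at 92.0, 93.6, 94.7 and 87.4 CPM in control and 109, 97.8, 103 and 101 CPM in mutant cells. With TNFα, Mcm7 was at 98.9, 93.1, 102 and 97.5 and 99.8, 100.3, 94.7 and 106 CPM. Its log2 fold change with TNFα was 0.10 ± 0.05 in control and -0.04 ± 0.063 in mutant cells (adjusted p = 0.112 and 0.652), so the 6 subunits of 1 complex did not fall alike. With vehicle the mutant was higher just inside the threshold (log2 fold change 0.17 ± 0.054, adjusted p = 0.04998). Exons of Ap4m1 and Cops6 on the opposite strand cover 6.2% and 6.13% of its exon bases.

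The origin licensing factor Cdc6 was the least abundant S phase gene per kilobase of exon. With vehicle, Cdc6 was at 18.9, 17.4, 17.2 and 15.5 CPM in control and 20.1, 21.6, 21.9 and 19.4 CPM in mutant cells. With TNFα, Cdc6 was at 10.3, 8.89, 7.87 and 8.78 and 9.53, 11.9, 9.83 and 8.0 CPM. Treatments were apart, and the log2 fold change was -0.95 ± 0.10 in control and -1.03 ± 0.10 in mutant cells (adjusted p = 1.23e-07 and 4.38e-09). The difference between genotypes with vehicle (log2 fold change 0.27 ± 0.083, adjusted p = 0.038) was not called without control vehicle replicate 4 (log2 fold change 0.21, adjusted p = 0.136). With vehicle, Gins2, part of the GINS complex of the active helicase, was at 24.8, 25.8, 25.5 and 21.2 CPM in control and 34.9, 29.6, 28.3 and 27.4 CPM in mutant cells. With TNFα, Gins2 was at 17.9, 20.3, 20.8 and 22.6 and 22.5, 23.0, 22.9 and 24.3 CPM. Its difference with vehicle (log2 fold change 0.31 ± 0.086, adjusted p = 0.0212) was likewise not called without control vehicle replicate 4 (log2 fold change 0.23, adjusted p = 0.0835), and 67.3% of its exon bases are covered by exons of Gse1 on the opposite strand.

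With vehicle, Pcna, the sliding clamp of the DNA polymerases and a usual marker of proliferation, was at 110.0, 113, 110.0 and 102 CPM in control and 112, 127, 126 and 117 CPM in mutant cells. With TNFα, Pcna was at 72.3, 64.4, 74.1 and 70.2 and 72.6, 76.6, 66.5 and 62.1 CPM. The genotypes overlapped and their difference did not pass the test (with vehicle log2 fold change 0.16 ± 0.055, adjusted p = 0.0695). TNFα went with a lower level in control cells (log2 fold change -0.62 ± 0.054, adjusted p = 3.96e-09) and in mutant cells (log2 fold change -0.78 ± 0.07, adjusted p = 3.53e-10). Pcna and the licensing factor Cdt1 (log2 fold change 0.19 ± 0.092, adjusted p = 0.219) were the 2 S phase genes that were not called between genotypes with vehicle.

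**Figure D4:**
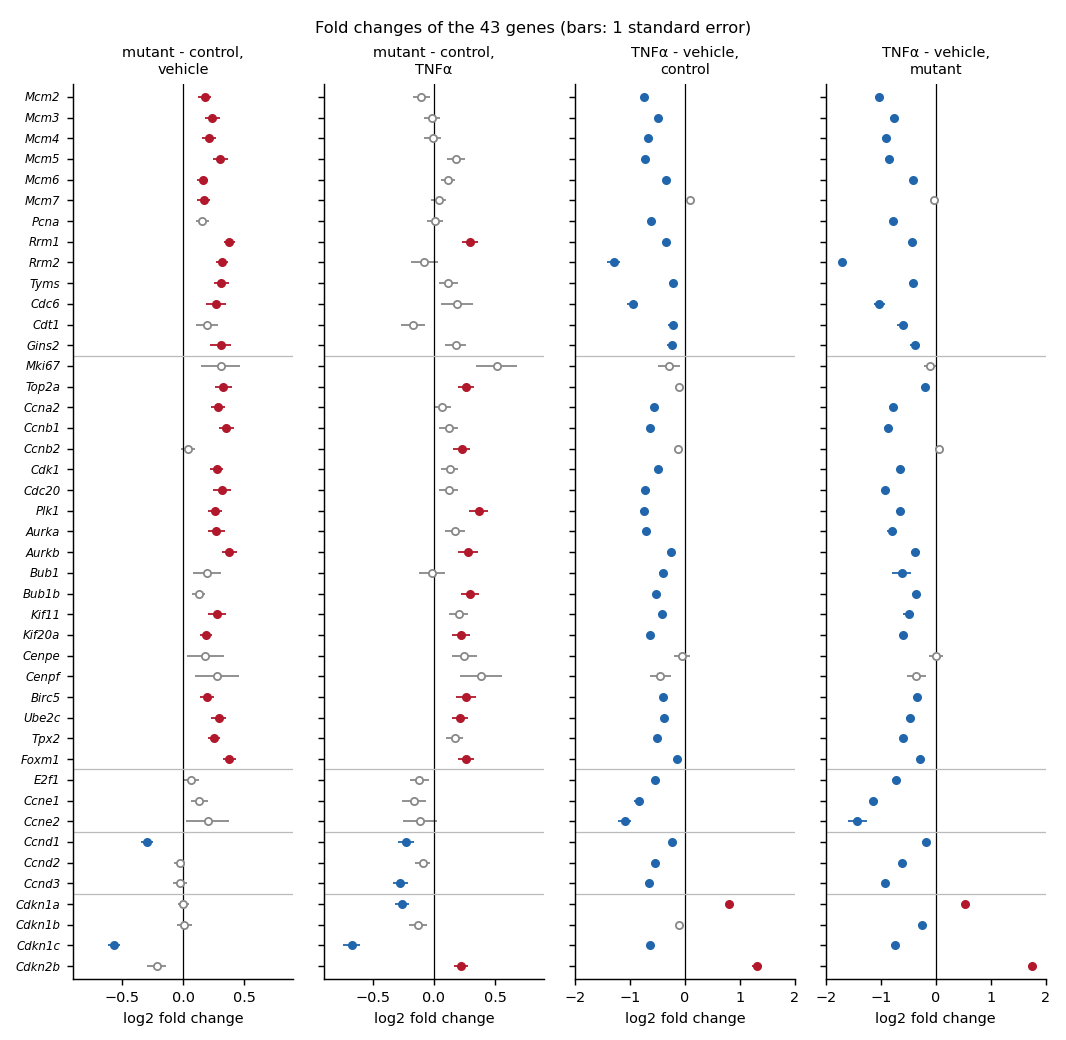
Log2 fold change of each of the 43 genes in the 4 comparisons of 2 groups, with bars of 1 SE. Filled red points were called higher and filled blue points lower at an adjusted p under 0.05 with edgeR, and open grey points were not called. The 2 left panels span 0.9 and the 2 right panels 2 in either direction, so the genotype differences, of 0.38 at most among the S phase and mitosis genes called, were smaller than most of the differences with TNFα.

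Among the mitosis genes, Foxm1 and Aurkb had the largest differences between genotypes with vehicle. With vehicle, Foxm1, a transcription factor of G2 and M phase genes, was at 64.3, 66.5, 67.7 and 66.7 CPM in control and 87.6, 85.5, 85.6 and 84.7 CPM in mutant cells. With TNFα, Foxm1 was at 56.5, 57.6, 64.0 and 59.7 and 65.2, 73.0, 74.6 and 69.5 CPM. The genotypes were apart under each treatment, and Foxm1 was higher in the mutant with vehicle (log2 fold change 0.38 ± 0.052, adjusted p = 1.64e-05) and with TNFα (log2 fold change 0.26 ± 0.065, adjusted p = 0.00797). Its log2 fold change with TNFα was -0.15 ± 0.054 in control and -0.28 ± 0.064 in mutant cells (adjusted p = 0.0263 and 0.000747). With vehicle, Aurkb, the kinase of the chromosomal passenger complex, was at 44.9, 41.9, 43.2 and 39.04 CPM in control and 55.5, 52.6, 54.4 and 56.3 CPM in mutant cells. With TNFα, Aurkb was at 32.5, 36.4, 36.8 and 34.8 and 36.1, 43.5, 44.4 and 47.2 CPM. With vehicle its groups were apart (log2 fold change 0.38 ± 0.06, adjusted p = 9.17e-05), and with TNFα Notch2tm1.1Ecan replicate 1 overlapped the control libraries (log2 fold change 0.28 ± 0.08, adjusted p = 0.0247). Without control TNFα replicate 4 the latter missed the threshold (adjusted p = 0.0551).

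Ccnb1, Ccna2 and their kinase Cdk1, which drive cells through G2 and into mitosis, were higher in the mutant with vehicle and lower with TNFα. With vehicle, Ccnb1 (cyclin B1) was at 66.7, 65.0, 62.7 and 58.3 CPM in control and 73.5, 77.2, 86.1 and 84.3 CPM in mutant cells. With TNFα, Ccnb1 was at 35.8, 40.6, 43.5 and 42.6 and 40.5, 47.7, 46.4 and 39.2 CPM. Genotypes were apart with vehicle (log2 fold change 0.35 ± 0.061, adjusted p = 0.000254) and overlapped with TNFα. The loss with TNFα was -0.63 ± 0.063 in control and -0.87 ± 0.075 in mutant cells (adjusted p = 3.52e-08 and 2e-10). With vehicle, Ccna2 (cyclin A2) was at 112, 109, 106 and 106 CPM in control and 116, 129, 139 and 139 CPM in mutant cells. With TNFα, Ccna2 was at 69.0, 68.5, 75.4 and 78.6 and 70.1, 83.0, 79.6 and 68.7 CPM. Here too the genotypes were apart with vehicle (log2 fold change 0.29 ± 0.058, adjusted p = 0.00137) and overlapped with TNFα, and the loss with TNFα was -0.56 ± 0.054 in control and -0.78 ± 0.073 in mutant cells (adjusted p = 1.81e-08 and 8.78e-10). Cdk1 had log2 fold changes of 0.28 between genotypes with vehicle and of -0.49 and -0.64 with TNFα in control and mutant cells, each called.

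Plk1, Cdc20 and Aurka, which drive entry into and exit from mitosis, fell the most with TNFα in control cells among the mitosis genes. With vehicle, Plk1 (ENSMUSG00000030867) was at 81.7, 84.7, 88.6 and 77.1 CPM in control and 102, 94.9, 97.3 and 101 CPM in mutant cells. With TNFα, Plk1 was at 43.4, 48.7, 49.4 and 55.0 and 57.6, 60.5, 65.6 and 71.5 CPM. All mutant libraries lay above all control libraries under each treatment. Plk1 was higher in the mutant with vehicle (log2 fold change 0.26 ± 0.056, adjusted p = 0.00251) and with TNFα (log2 fold change 0.37 ± 0.078, adjusted p = 0.00178), and it was lower with TNFα, with a log2 fold change of -0.75 ± 0.063 in control and -0.65 ± 0.069 in mutant cells (adjusted p = 3.3e-09 and 9.64e-09). With vehicle, Cdc20 was at 89.5, 92.7, 97.3 and 76.4 CPM in control and 119, 97.7, 113 and 112 CPM in mutant cells. With TNFα, Cdc20 was at 47.5, 49.4, 57.1 and 60.3 and 54.9, 61.7, 58.1 and 56.0 CPM. The genotypes were apart with vehicle by a small margin (log2 fold change 0.32 ± 0.073, adjusted p = 0.00649) and overlapped with TNFα, and the loss was -0.72 ± 0.08 in control and -0.93 ± 0.07 in mutant cells (adjusted p = 3.11e-06 and 1.19e-11).

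With vehicle, Aurka, a spindle pole kinase, was at 44.9, 42.7, 42.5 and 39.04 CPM in control and 57.3, 46.3, 49.4 and 50.6 CPM in mutant cells. With TNFα, Aurka was at 24.6, 24.6, 27.0 and 27.3 and 25.5, 30.9, 31.0 and 28.4 CPM. It was higher in the mutant with vehicle (log2 fold change 0.27 ± 0.069, adjusted p = 0.0103) and lower with TNFα in control cells (log2 fold change -0.70 ± 0.066, adjusted p = 1.29e-08) and in mutant cells (log2 fold change -0.80 ± 0.083, adjusted p = 5.32e-09), and the treatments did not overlap. Exons of Fam210b on the opposite strand cover 25.2% of its exon bases. With vehicle, Kif20a, a kinesin of cytokinesis, was at 141, 141, 141 and 139 CPM in control and 164, 150.1, 160.0 and 161 CPM in mutant cells. With TNFα, Kif20a was at 86.9, 81.5, 93.4 and 99.0 and 96.5, 107, 101 and 117 CPM. Between genotypes it differed by 0.18 ± 0.049 with vehicle and 0.22 ± 0.071 with TNFα (adjusted p = 0.015 and 0.0459), and with TNFα by -0.63 ± 0.056 in control and -0.60 ± 0.065 in mutant cells (adjusted p = 5.36e-09 and 1.3e-08). Cdc23 exons on the opposite strand cover 54.8% of its exon bases.

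With vehicle, Bub1b, the spindle checkpoint protein BUBR1, was at 70.5, 70.6, 69.8 and 75.1 CPM in control and 79.1, 76.0, 78.5 and 77.5 CPM in mutant cells. With TNFα, Bub1b was at 45.7, 45.9, 50.8 and 55.7 and 55.6, 61.3, 61.2 and 65.9 CPM. The genotypes were apart with vehicle, but the difference missed the threshold (log2 fold change 0.13 ± 0.053, adjusted p = 0.151), and with TNFα, where 1 pair of libraries overlapped, it passed (log2 fold change 0.30 ± 0.074, adjusted p = 0.00772). The interaction of 0.17 ± 0.092 was not called (adjusted p = 0.646), so the genotype difference was not shown to depend on TNFα. Its log2 fold change with TNFα was -0.52 ± 0.063 in control and -0.36 ± 0.066 in mutant cells (adjusted p = 4.62e-07 and 5.15e-05).

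Top2a and Mki67 are common markers of proliferation. With vehicle, Top2a (topoisomerase IIα) was at 267, 248, 246 and 282 CPM in control and 275, 356, 335 and 338 CPM in mutant cells. With TNFα, Top2a was at 247, 228, 239 and 249 and 261, 279.9, 312 and 293 CPM. It was higher in the mutant with vehicle (log2 fold change 0.33 ± 0.068, adjusted p = 0.00309) and with TNFα (log2 fold change 0.26 ± 0.064, adjusted p = 0.00637), and its log2 fold change with TNFα was -0.11 ± 0.054 in control and -0.19 ± 0.073 in mutant cells (adjusted p = 0.116 and 0.0411), so that only the latter was called. With vehicle, Mki67 (the antigen Ki-67) was at 225, 219, 182 and 285 CPM in control and 231, 326, 273 and 291 CPM in mutant cells. With TNFα, Mki67 was at 220.2, 147, 159 and 214 and 236, 235, 309 and 267 CPM. The groups overlapped in all comparisons but that of the genotypes with TNFα, where the log2 fold change of 0.51 ± 0.17 was the largest positive value of the mitosis genes, and none was called (adjusted p = 0.357 and 0.128 between genotypes, 0.301 and 0.535 with TNFα).

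Mki67, Cenpe and Cenpf, the latter 2 encoding kinetochore proteins and chosen for description after their values were seen, varied most between replicates. Their coefficients of variation within groups, averaged over the 4 groups, were 16.6% for Mki67, 15.0% for Cenpe and 18.1% for Cenpf, against a median of 6.40% over the 43 genes. With vehicle, Cenpf was at 56.8, 55.0, 48.6 and 70.0 CPM in control and 49.2, 81.2, 72.6 and 74.7 CPM in mutant cells. With TNFα, Cenpf was at 49.7, 33.3, 35.6 and 49.9 and 47.8, 53.9, 65.6 and 48.3 CPM. The 3 genes were called in no comparison of 2 groups over all libraries. Exon length did not go with the spread, with a Spearman correlation of -0.005 across the 43 genes, which are not independent replicates. Ccnb2 (cyclin B2), also chosen after its values were seen, was called higher in the mutant with TNFα (log2 fold change 0.23 ± 0.068, adjusted p = 0.0322) and in no other comparison, at 54.0 ± 1.72, 55.3 ± 2.80, 49.4 ± 1.87 and 57.9 ± 4.18 CPM (mean ± SD, n = 4) in control vehicle, Notch2tm1.1Ecan vehicle, control TNFα and Notch2tm1.1Ecan TNFα.

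The levels of further mitosis genes are given as means ± SD of 4 libraries. Tpx2, a spindle assembly factor, was at 142 ± 4.44 CPM in control vehicle, 168 ± 0.802 in Notch2tm1.1Ecan vehicle, 99.4 ± 11.0 in control TNFα and 110.4 ± 7.98 in Notch2tm1.1Ecan TNFα. Ube2c, the ubiquitin conjugating enzyme of the anaphase-promoting complex, was at 83.8 ± 7.09, 102 ± 3.396, 63.9 ± 0.867 and 73.3 ± 5.76 CPM in the same order. Birc5 (survivin) was at 44.8 ± 0.979, 51.2 ± 2.22, 33.9 ± 2.66 and 40.8 ± 3.65 CPM. Each of these was called higher in the mutant with vehicle and lower with TNFα in both genotypes, and Ube2c and Birc5 were called higher in the mutant with TNFα as well. The kinesin Kif11 was at 70.8 ± 3.495, 85.4 ± 11.0, 53.1 ± 4.33 and 59.9 ± 7.63 CPM and the checkpoint kinase Bub1 at 32.8 ± 0.778, 37.3 ± 7.25, 24.7 ± 2.42 and 23.6 ± 4.93 CPM. Kif11 was called higher in the mutant with vehicle (adjusted p = 0.0217) but not without control vehicle replicate 4 (log2 fold change 0.29, adjusted p = 0.0624), nor was Birc5 (log2 fold change 0.18, adjusted p = 0.0622). With TNFα, without control TNFα replicate 4, Ube2c (adjusted p = 0.0552) and Birc5 (adjusted p = 0.0882) were no longer called between genotypes, while Tpx2 (adjusted p = 0.0312) and Kif11 (adjusted p = 0.0443) then were. Bub1 was called lower with TNFα in both genotypes and not between genotypes (adjusted p = 0.379 with vehicle and 0.966 with TNFα).

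Levels of different genes were compared as CPM per kilobase of exon in control vehicle. On this scale Cdkn1c (92.3), Ccnd2 (89.5), Ccnd1 (69.8) and Rrm2 (68.3) were highest, followed by Cdkn1a (46.8), Cdc20 (45.7) and Pcna (45.2). The lowest were Ccne2 (3.85), Cenpf (3.48) and Cdc6 (3.15). Of the 43 genes, 20 share exon bases with another gene of the files in the annotation, 19 of them with a gene on the opposite strand. The strand setting of the counting is not given in the sources used here, so reads of such pairs may have been split or dropped.

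Other genes of the pathway were read from lists. With vehicle, 35 of 60 other mitosis genes and 18 of 50 other replication genes were higher in the mutant (6.19% of all genes), with median log2 fold changes of 0.24 and 0.23. Without control vehicle replicate 4 these counts were 30 and 13. Sapcd2 (0.51), Bora (0.46, an activator of Aurora A) and Spc24 (0.44, a kinetochore subunit) had the largest rises of the mitosis list, and Uhrf1 (0.39), Tk1 (0.35, thymidine kinase) and Clspn (0.35) those of the replication list named by the rule. With TNFα 12 of the other mitosis genes were higher in the mutant (5.63% of all genes), led by Kif4, Ncapd2 and Kif2c (0.35, 0.35 and 0.34), and 18 without control TNFα replicate 4. The groups overlapped for Ncapd2. Of the other replication genes 3 of 50 were higher, a share near that of all genes: Pole, Uhrf1 and Dut (0.38, 0.31 and 0.28).

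With TNFα against vehicle, 33 of the 50 other replication genes were lower in control and 39 in mutant cells, and of the 60 other mitosis genes 47 and 50 (20.9% and 21.9% of all genes). Without both control replicate 4 libraries 31 and 47 were lower in control cells. The uracil DNA glycosylase Ung fell by the most on the replication list (log2 fold change -1.38 in control and -2.21 in mutant cells), with Orc1 (-0.97 and -1.12), Pole2 in control cells (-0.78) and Hells in mutant cells (-1.16). Rfc3 was higher in control cells (0.33). On the mitosis list Anln, Cdc25c and Depdc1a had the largest losses in control cells (-0.78, -0.72 and -0.62), and Depdc1a, Bora and Sapcd2 in mutant cells (-0.99, -0.93 and -0.92). In mutant cells the vehicle and TNFα libraries overlapped for Depdc1a (SE 0.22) and Sapcd2 (SE 0.17) and not for Bora (SE 0.12). Pttg1 (securin) rose in each genotype (0.68 and 0.73), and Nusap1 in control cells (0.19), where its groups overlapped.

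Other regulators of G1 and E2F were called in either direction. Of 29 tested in control cells 7 were higher and 12 lower with TNFα, and of 30 in mutant cells 8 were higher and 14 lower. The higher counts are near the share of all genes called higher, 23.3% and 22.6%, and the lower counts stand beside 20.9% and 21.9%. Without both control replicate 4 libraries 8 were higher and 11 lower in control cells. Cdk6, the kinase partner of the D-type cyclins, had the largest rise (1.44 and 1.75), with Ccng2 (1.13 and 1.11) and Cdkn2a (0.94 and 0.92), the latter the neighbour of Cdkn2b that encodes p16 and p19ARF. Skp2, which targets p27 for degradation, fell (-0.58 and -0.89), as did Tfdp1 and E2f7 in control cells (-0.50 and -0.50) and Cdkn2c and Mybl2 in mutant cells (-0.62 and -0.60). Between genotypes 3 of 30 were higher in the mutant with vehicle (6.19% of all genes): Mybl2 0.39, Cdkn2d 0.27 and E2f8 0.23. The groups overlapped for Cdkn2d. Without control vehicle replicate 4, 0 were higher, and 4 of 30 had an unadjusted p under 0.05. With TNFα 1 was higher (5.63% of all genes), Rbl1 (0.23). These genotype counts are near the shares of all genes.

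Of 24 p53 target genes, read because Cdkn1a is one, 22 were higher and 1 lower with TNFα in control cells, and 16 were higher and 1 lower in mutant cells (23.3% and 22.6% of all genes were higher). The counts in control cells were the same without both control replicate 4 libraries. Fas (2.81 and 3.16), which TNFα is known to induce by other routes, led the rises, with Eda2r and Trp53inp1 in control cells (1.57 and 1.49) and Plk2 and Bbc3 in mutant cells (1.46 and 1.38), and Plk3 was the gene that fell (-0.55 and -0.43). Between genotypes 1 of 24 was higher and 2 lower under each treatment, near the shares of all genes (6.19% and 4.35% with vehicle, 5.63% and 4.31% with TNFα). Phlda3 was higher and Gadd45a and Tnfrsf10b lower in the mutant with vehicle (0.34, -0.53 and -0.21), and Plk2 was higher and Trp53inp1 and Mdm2 lower with TNFα (0.32, -0.29 and -0.21). Without control vehicle replicate 4 the counts with vehicle were the same, and without control TNFα replicate 4, 6 of the 24 were lower in the mutant with TNFα.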

How the data were processed

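mRNA of 16 cultures was sequenced in 1 pool with paired end reads from stranded libraries. The authors deposited raw counts per gene for each library, made with HISAT2 and htseq-count, and the processing notes name HISAT2 2.1.0, SAMtools 1.9 and GRCm38, while the study's methods name GRCm39. The strand setting is not given in the sources used here. Entries naming no gene (8.81 to 12.1% of a library) were left out. Identifiers were matched to symbols with GENCODE M39, where 665 of 55414 were absent.

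Groups were compared with edgeR 4.0.16 in R 4.3.3 (TMM, robust quasi-likelihood test, genes with at least 10 counts over the compared libraries), on the 8 libraries of each comparison or on all 16 for the interaction, and p-values were adjusted with Benjamini-Hochberg over all genes tested. A gene was called at an adjusted p under 0.05, with no fold cutoff, in 4 comparisons and the interaction. CPM are counts scaled with TMM factors over all libraries. Depth, from 3439726 to 44237300 counts on genes, left each of the 43 genes at 7.87 CPM or more in every library. The covariates of the study's own fit are not named and none were used.

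Genes described with values in each library were, by rule, the D-type cyclins, G1/S switch genes, CDK inhibitors, the 4 S phase and 4 mitosis genes with the largest fold changes among those called in a comparison, and Mki67, Top2a, Mcm2 and Pcna. From each further list the 3 largest rises and falls called in a comparison were named. Members, lists and tests were chosen with earlier results of these data known. Ccng1 stands on both the G1 and the p53 list.

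The alternatives were DESeq2 1.42.0, RLE normalization, filterByExpr, keeping every gene with 1 count, a threshold of 0.1 for the adjusted p, a log2 fold change of at least 1, a fit to all libraries, a replicate block, each library left out, and both control replicate 4 libraries left out. The scripts were checked on simulated counts. Motifs were searched in RefSeq promoter windows of GRCm38.p6. Figures were drawn with matplotlib 3.10.9.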

Additional observations from a re-analysis of the deposited data

Results flagged for a closer look

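Of 172 combinations of gene and group, 6 had a library far from the other 3 of its group by Dixon's criterion, which chance gives in about 1 in 20. 4 of these were control vehicle replicate 4, the library with raised TNFα target genes. In it Mcm2 was at 99.9 CPM (others 111.6 to 112.2), Mcm5 at 76.9 CPM (87.5 to 89.5) and Kif20a at 138.7 CPM (140.8 to 141.1), while Bub1b was at 75.1 CPM (69.8 to 70.6). In Notch2tm1.1Ecan vehicle replicate 1 Mcm2 was at 131 CPM (119 to 120.3), and in Notch2tm1.1Ecan vehicle replicate 3 Tyms was at 40.3 CPM (41.3 to 41.5), a small gap in a tight group.

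The rise of Cdkn2b with TNFα differed between the genotypes, with an interaction of 0.43 on the log2 scale by edgeR's quasi-likelihood test (adjusted p = 0.0265). It was 0.29 without both control replicate 4 libraries (adjusted p = 0.106), and in those libraries Cdkn2b was the highest of the vehicle and the lowest of the TNFα libraries. The call was also lost without 1 library in 8 of 16 cases, among them Notch2tm1.1Ecan TNFα replicates 1, 2 and 3 and Notch2tm1.1Ecan vehicle replicates 2 and 3, and with a replicate block.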

How the results depend on the processing

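None of the 43 genes that was called in a comparison changed direction under any alternative. The genes of the further lists were not part of this check. Calls of the 43 genes were counted once for each library left out. Between genotypes 166 held and 50 were lost with vehicle, and 83 and 37 with TNFα. For TNFα against vehicle the counts were 273 and 15 in control and 296 and 8 in Notch2tm1.1Ecan cells. A log2 fold change of at least 1 left 0 genes higher and 0 lower between genotypes with vehicle and with TNFα (0 S phase and 0 mitosis genes), 1 higher and 2 lower with TNFα in control cells (1 S phase, 0 mitosis) and 1 higher and 5 lower in Notch2tm1.1Ecan cells (3 S phase, 0 mitosis). With vehicle, the S phase genes higher in the mutant numbered 7 in a fit to all 16 libraries, 6 without both control replicate 4 libraries, and 6 to 11 with 1 library left out. With TNFα, leaving out 1 library gave 4 to 10 genes higher in the mutant and 2 to 9 mitosis genes. The S phase median with TNFα in control cells was -0.58 without both control replicate 4 libraries. With 1 library left out, the mitosis median in control cells ran from -0.50 to -0.37 and the S phase median in Notch2tm1.1Ecan cells from -0.80 to -0.69. The cause of these shifts was not tested, and fits with fewer libraries have less power.

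The interaction called 2 of the 43 genes with DESeq2 (Cdkn2b and Cdkn1a), 2 where genes with 1 count were kept, and 0 to 1 with 1 library left out: it was 0 without Notch2tm1.1Ecan TNFα replicate 1, 2 or 3, Notch2tm1.1Ecan vehicle replicate 2 or 3, control TNFα replicate 2 or 4, or control vehicle replicate 4. Over 24 pairs of same-numbered libraries the correlation of deviations ran from -0.25 to 0.23, with a median of -0.02. Such values do not show that replicate numbers pair the samples, and they cannot exclude it, since the animals in each replicate are not given. With the replicate block the interaction called 0 genes, and the counts of calls in the other comparisons stayed within 1.5 times (23 higher with vehicle and 11 with TNFα between genotypes).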
